A study of Gallus gallus with 2 samples.

Results

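The T cell receptor complex and its coreceptors were examined as 10 genes: the CD3 chains CD3E, CD3D and CD247, the coreceptors CD4, CD8A and CD8BP, and the costimulatory and regulatory surface genes CD5, CD28, ICOS and CD40LG. Their probes were found by the gene symbol or gene description in the array annotation, so they are 10 of 8441 genes with a name here, measured by 11 probes of 42034 on the array, 1 for each gene and 2 for CD28. RNA came from lymphocytes of the gut epithelium, taken from broiler chickens on day 14. In the first group the birds were fed direct fed microbials (DFM, live bacteria mixed into feed, whose strains the labels do not name), and in the second they were untreated controls. Both RNAs were hybridised together on each of 2 two-colour arrays, with DFM in Cy5 on replicate 1 and in Cy3 on replicate 2. The labels call replicate 2 a biological replicate and also the dye exchange of replicate 1. They do not give the number of birds behind each RNA, so the difference between the 2 arrays may be technical. Each p-value rests partly on that difference and mostly on a variance pooled over all tested probes.

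The T cell receptor binds peptide held by MHC molecules but has almost no cytoplasmic tail of its own. The CD3 chains carry the signal into the cell through tyrosine motifs that are phosphorylated by the kinase LCK, which is brought to the complex by CD4 or CD8. CD4 recognises MHC class II and CD8 MHC class I. Costimulatory receptors such as CD28 and ICOS add to the signal, and CD5 dampens it. Intraepithelial lymphocytes of the gut are largely CD8-bearing T cells, and in chickens many of them use the gamma delta receptor. Chickens have 1 gene, annotated as CD3D, in place of the separate CD3 gamma and CD3 delta genes of mammals.

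A probe was tested with limma if, for 1 group or both, its signal stood well above background on each array. Of 42034 probes 18242 met this, and 2202 of these were higher and 1918 lower with DFM at an adjusted p under 0.05. Loess normalization sets the typical probe of an array to 0, and every direction is relative to that. Among 12 markers of T cells and intraepithelial lymphocytes, 8 had a probe named here and 7 were tested. CD3E, CD3D, CD247, CD8A and LCK were well above background in all 4 channels, as was the cytotoxic protease gene GZMA, which was 3.14-fold lower with DFM. The CD8A and LCK spots were nevertheless dim, at 75.4 to 90.4 and 82.3 to 96.2 over backgrounds of 42.0 to 52.0. The probe of the leukocyte phosphatase gene PTPRC stayed near background in all 4 channels, and ITGAE, ITGB7, CCR9 and CD2 had no probe named here. Markers of other cells moved between the groups as well. All 9 tested exocrine pancreas genes were higher with DFM. The log2 of their summed signal was 14.39 to 14.43 in DFM against 10.19 to 10.26 in control. Such a sum is weighted toward the brightest genes of a list. CEL and PNLIPRP1 were well above background in no control channel. Of 15 tested enterocyte and epithelial genes, 7 were lower, 1 was higher and 7 were not called. Over all tested genes, each by its brightest probe, 14.5% were called lower and 8.41% higher. The log2 of the epithelial list's summed signal was 18.88 to 19.16 in DFM against 19.22 to 19.35 in control. The mean log2 ratios of the list ran from -1.39 to 0.60. DSP was 2.31-fold, HNF4A 2.18-fold and the epithelial adhesion gene EPCAM 1.61-fold lower. FABP6, the only gene of the list called higher, rose 1.51-fold. Among the uncalled were VIL1 at -0.34 and -0.15 and CDX2 at 0.73 and 0.02. Of 5 tested B and plasma cell genes, BCL11A was 2.24-fold higher (1.64 and 0.68) and BTK 1.71-fold lower (-0.91 and -0.64), and 3 were not called, among them CD79B at -0.11 and 0.13. PAX5 was well above background in 1 DFM channel only. Of 5 tested macrophage and granulocyte genes, 2 were higher, S100A12 by 2.54-fold and LYZ by 1.68-fold, and 0 lower (median 0.31). The log2 of their summed signal was 10.57 to 10.67 in DFM against 9.80 to 9.85 in control. Of 5 tested stroma genes, POSTN was 2.21-fold and MYH11 1.70-fold lower, with MYH11 well above background in 1 of 2 DFM channels. For PECAM1, 3 probes were tested, and limma called only A_87_P031476, with a 1.84-fold rise. Its other probes had mean log2 ratios of 0.23 (adjusted p = 0.256) and 0.06 (adjusted p = 0.764) and were not called. Of 3 tested erythrocyte genes HBE1 was higher and HBBA lower, and of 4 cytotoxic genes CD244 and XCL1 were lower beside GZMA. None of these genes outside the pancreas list kept its call with median centring, and within that list CEL, CPB1 and CTRL lost theirs. EPCAM, FABP6, BCL11A, LYZ, PECAM1, HBBA, CD244 and XCL1 also lost their calls with the scanner software's ratio. With median centring every member had the same SE of 0.61, so a call lost there says little about a gene's own replication. In bulk RNA of this kind, fewer cells of a type and less RNA per cell cannot be told apart, and the part these other cells have in the results below was not tested.

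Of the 10 tested members, 2 passed the test in the higher direction, CD5 and CD40LG, and 1 in the lower, CD3D. Over all tested probes 12.1% were called higher and 10.5% lower, so the counts among the members are small and close to that background, and nothing is read from them about the group. The second CD28 probe did not rise well above background and was not tested. The members' median log2 ratio of DFM over control was -0.08, against 0.00 over all tested probes. After loess the ratio had the same sign on both arrays for 9 of the 10, the exception being CD8BP. No such share over all tested probes is given here, so nothing is read from this count. With median centring only CD4, CD8A and CD40LG had the same sign on both arrays. By channel level, both DFM values lay above both control values for 4 members (CD4, CD5, ICOS and CD40LG) and below them for 4 (CD3E, CD3D, CD247 and CD8A), and the groups overlapped for CD8BP and CD28. Over all tested probes, 34.1% lay above and 33.9% below in this way.

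**Figure D1:**
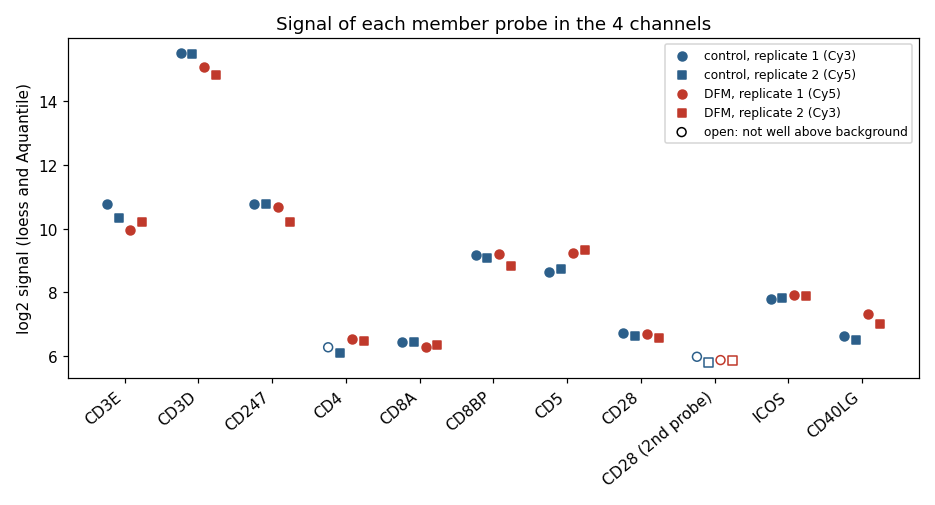
Normalized log2 signal of each of the 11 member probes in the 4 channels, with control in blue and DFM in red, replicate 1 as circles and replicate 2 as squares. Open symbols mark channels not well above background: control CD4 on replicate 1 and all 4 channels of the second CD28 probe. CD3D runs from 14.81 to 15.49 and CD8A from 6.30 to 6.46, and signals of different probes are not comparable as transcript amounts.

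The CD3 chains are the signalling part of the complex, and CD3D was the member that fell. CD3D, the chicken CD3 gamma/delta chain, is measured by probe A_87_P009328 on chromosome 24 (5135571 to 5135512, coordinates here and below as in the files' galGal2 build). Its spot brightness was 55626 in the DFM channel and 29542 in the control channel of replicate 1, and 17671 and 63138 on replicate 2, over local backgrounds of 42.0 to 55.0. After normalization its log2 signal was 15.05 and 14.81 in DFM against 15.49 and 15.47 in control. Both DFM values thus lay below both control values. The log2 ratios were -0.44 and -0.66 (mean -0.55 ± 0.13, SE, n = 2 arrays, adjusted p = 0.0186), or 1.46-fold lower. The mean was negative under every alternative processing run, but the call was not kept in all of them. The adjusted p was 0.0784 with no offset in the background correction and 0.133 with the scanner software's own ratio. Median centring also lost the call, with ratios of 0.76 on replicate 1 and -1.70 on replicate 2. The sign on replicate 1 thus depended on the normalization.

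CD3E, the epsilon chain that pairs with the other CD3 chains, is measured by probe A_87_P008751, whose coordinates on chromosome 24 (5130726 to 5130785) lie 4.73 kb from those of the CD3D probe. Its log2 signal was 9.97 and 10.20 in DFM against 10.76 and 10.34 in control. The DFM values again lay below the control values, but unevenly: the log2 ratio was -0.79 on replicate 1 and -0.14 on replicate 2 (mean -0.47 ± 0.17, SE, adjusted p = 0.0763), and it did not pass the test. The difference of 0.65 between the arrays was exceeded by 4.26% of the tested probes, whose median difference was 0.19. The scanner software's error model gave the same picture within each array, with a p of 5.54e-05 on replicate 1 and 0.563 on replicate 2. In a fit over 1 probe per named gene, an alternative added after the data were seen, the adjusted p of CD3E was 0.0493.

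CD247, the zeta chain with the longest signalling tail of the complex, is measured by probe A_87_P037534 on chromosome 1 (85558194 to 85558253). Its log2 signal was 10.68 and 10.20 in DFM against 10.76 and 10.77 in control. The groups did not overlap, but only replicate 2 showed a wide gap, with log2 ratios of -0.09 and -0.57. The mean of -0.33 ± 0.15 (SE, n = 2) did not pass the test (adjusted p = 0.148), and the 95% interval of the log2 ratio ran from -0.67 to 0.01. After loess all 3 CD3 chains had negative ratios on both arrays, and 1 of the 3 was called. Of all tested probes, 33.9% likewise had both DFM levels below both control levels, and 10.5% were called lower. Nothing is read from these counts about the chains as a group. CD3E was further from 0 on replicate 1, and CD3D and CD247 on replicate 2. With median centring none was negative on replicate 1, where CD3D measured 0.76, CD247 0.74 and CD3E 0.00.

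**Figure D2:**
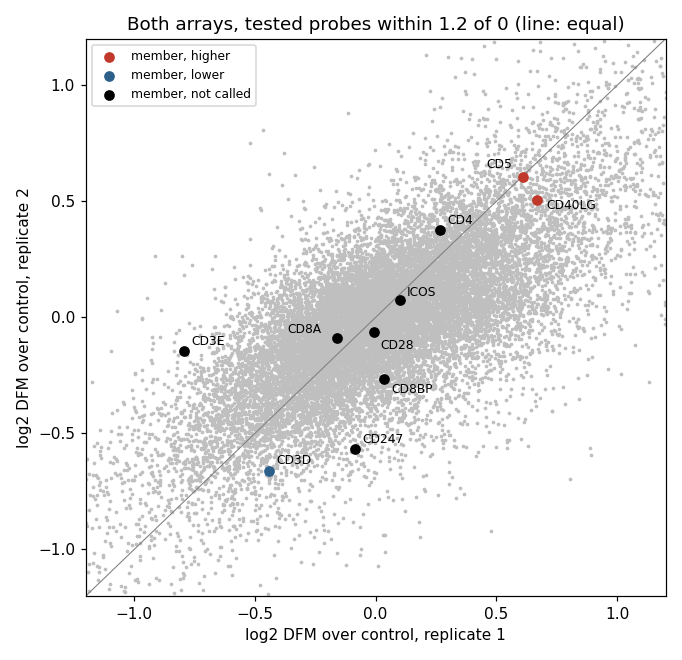
Log2 ratio of DFM over control on replicate 1 (x axis) against replicate 2 (y axis) for the tested probes within 1.2 of 0 in grey and the 10 tested members in colour (red called higher, blue called lower, black not called). CD5 at 0.61 and 0.61 sits on the line of equal ratios, whereas CD3E at -0.79 and -0.14 and CD247 at -0.09 and -0.57 lie off it on opposite sides.

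Of the coreceptors, none passed the test in either direction, and CD4 and CD8A were measured close to background. CD4, the coreceptor for MHC class II, is measured by probe A_87_P035148 on chromosome 1 (71305970 to 71306276). Its spots measured 102 (DFM) and 69.5 (control) on replicate 1 and 85.9 and 75.4 on replicate 2, over backgrounds of 39.0 to 57.0, and the control channel of replicate 1 was not well above background. The log2 signals were 6.55 and 6.48 in DFM against 6.28 and 6.10 in control, with both DFM values above both control values. The log2 ratios were 0.27 and 0.38 (mean 0.32 ± 0.13, SE, adjusted p = 0.101). The size of this ratio depended on how background was treated. The mean was 0.87 (adjusted p = 0.0178) with no offset and 1.43 (adjusted p = 0.0244) with the scanner software's ratio, both past the threshold, with 1.52 and 1.33 on the arrays by the latter. An offset added before taking logs pulls ratios of dim spots toward 0, and CD4 was higher with DFM on both arrays under all the alternatives run.

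CD8A, the alpha chain that forms both CD8 dimers, is measured by probe A_87_P008742 on chromosome 4 (85758505 to 85758446). Its spots measured 75.4 to 90.4 over backgrounds of 43.0 to 51.5. The log2 signals were 6.30 and 6.35 in DFM against 6.46 and 6.44 in control, a narrow gap with no overlap. Its log2 ratio was -0.16 and -0.09 (mean -0.12 ± 0.12, SE, adjusted p = 0.499). With the scanner software's ratio the arrays gave -0.80 and -0.55, and the mean of -0.68 was not called either (adjusted p = 0.0913). The ratio of CD4 exceeded that of CD8A by 0.43 and 0.46 on the log2 scale on the 2 arrays, and by 2.33 and 1.89 with the scanner software's ratio. This difference was formed after the values were seen and carries no test.

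CD8BP is the gene of the CD8 beta chain, which pairs with alpha in the alpha beta coreceptor and is missing from the alpha alpha form that many gut lymphocytes carry. Its probe A_87_P008699, labelled CD8B in the files, lies on chromosome 4 (85977194 to 85977135), 219 kb from the CD8A probe, and was bright, at 321 to 819 over backgrounds of 40.5 to 51.0. The log2 signals were 9.21 and 8.83 in DFM and 9.18 and 9.09 in control, so the groups overlapped. The log2 ratios were 0.03 and -0.27 (mean -0.12 ± 0.13, SE, adjusted p = 0.559), with a 95% interval of -0.42 to 0.19. Between CD8BP and CD8A the difference of ratios was 0.20 on replicate 1 and -0.18 on replicate 2. With the scanner software's ratio it was 0.68 and 0.32, positive on both arrays, so its sign on replicate 2 depended on the processing.

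Of the costimulatory and regulatory genes, CD5 and CD40LG rose, and CD28 and ICOS stayed within their error of 0. CD5, a scavenger receptor family protein of T cells that restrains receptor signalling, is measured by probe A_87_P008738 on chromosome 5 (3073264 to 3073323). The log2 signals were 9.24 and 9.33 in DFM against 8.63 and 8.73 in control, without overlap. On the arrays its log2 ratio was 0.61 and 0.61 (mean 0.61 ± 0.12, SE, n = 2, adjusted p = 0.0104), or 1.52-fold higher. After loess the arrays differed by 0.01, a smaller gap than in 98.3% of the tested probes. With median centring CD5 measured 1.27 on replicate 1 and -0.14 on replicate 2, so this closeness depended on the normalization. The scanner software's within-array p was 0.00294 and 0.00132, but its ratio was not called across the arrays (mean 0.66, adjusted p = 0.0892).

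CD40LG, the ligand by which activated T cells stimulate B cells and antigen-presenting cells through CD40, is measured by probe A_87_P037496 on chromosome 4 (4156851 to 4157146). Its spots measured 185 and 110 in the DFM channels against 87.3 and 101 in the control channels. The log2 signals were 7.32 and 7.0 in DFM against 6.65 and 6.50 in control, without overlap. The log2 ratios were 0.67 and 0.51 (mean 0.59 ± 0.13, SE, adjusted p = 0.0135), so CD40LG rose with DFM. As for CD4, less compression of dim signal gave a wider ratio, 1.06 with no offset and 1.26 with the scanner software's ratio. CD40LG was called in 7 of the 8 settings run and CD5 in 5 of 8, counting the reported one. These settings are not separate checks. The runs with other filters and the fit over 1 probe per gene reuse the reported ratios, and the authors' deposited table repeats the scanner software's ratio. Neither gene was called with median centring in place of loess. There every member had the same SE of 0.61, too wide to call ratios of this size.

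CD28, the main costimulatory receptor of T cells, gave log2 signals of 6.71 and 6.57 in DFM and 6.72 and 6.63 in control, with overlapping groups, by probe A_87_P008861 on chromosome 7. Its log2 ratios of -0.01 and -0.06 (mean -0.04 ± 0.12, SE, adjusted p = 0.861) had a 95% interval from -0.32 to 0.25. ICOS, the inducible relative of CD28 and its neighbour on chromosome 7, is measured by probe A_87_P020994 (14182314 to 14182255). Its log2 signals were 7.91 and 7.90 in DFM against 7.81 and 7.82 in control, a small gap with no overlap, and its log2 ratios were 0.10 and 0.07. The mean of 0.09 ± 0.12 (SE, adjusted p = 0.645) had an interval from -0.20 to 0.37. Under the reported processing, a change of the size seen for CD5 lies outside the intervals of both CD28 and ICOS. The CD28 spots were dim, however, at 87.3 to 122 over backgrounds of 43.0 to 55.0, where the offset pulls ratios toward 0. With median centring the SE of 0.61 was too wide to set such a limit for either gene. The listed coordinates of the CD28 probes span 13 and 32 bases, and those of CD4 and CD40LG 307 and 296, against 60 for the other members, so for these genes they do not give the exact place of the probe.

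Setting 2 ratios of an array against each other removes a shift common to all its probes, but not the part of loess that varies with brightness. CD5 exceeded CD3D by 1.05 on replicate 1 and 1.27 on replicate 2 on the log2 scale, and CD40LG exceeded CD3D by 1.11 and 1.17. Against CD3E the differences were less even, at 1.40 and 0.75 for CD5 and 1.46 and 0.65 for CD40LG. With median centring CD5 exceeded CD3D by 0.51 and 1.56, and CD40LG exceeded it by 0.26 and 1.9, so the sizes depended on the normalization. CD5 and CD40LG lay above CD3D and CD3E on both arrays in each of these settings and by the scanner software's ratio. These pairs were formed after the values were seen, so the differences are given with no test.

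**Figure D3:**
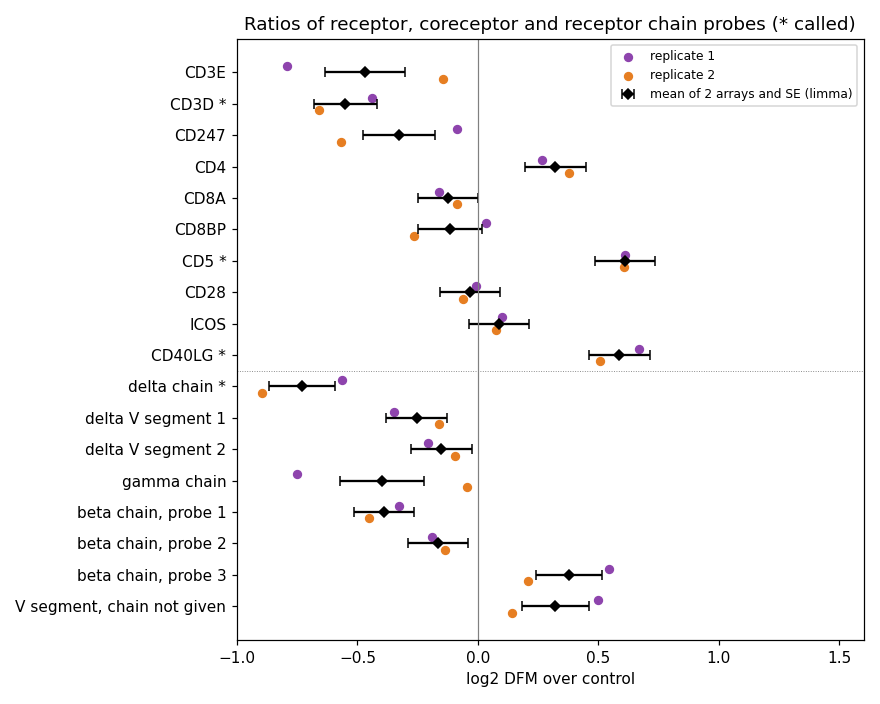
Log2 ratio of DFM over control for the 10 tested members (above the dotted line) and the 8 tested T cell receptor chain probes (below), with replicate 1 in purple, replicate 2 in orange and the mean with limma's SE in black. Asterisks mark the probes that passed the test: CD3D at -0.55, CD5 at 0.61, CD40LG at 0.59 and the delta chain at -0.73.

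The antigen-binding chains themselves are not among the 10 genes, and no probe carried a chain's current symbol, but 12 probes have descriptions that name a chicken T cell receptor chain or V segment. They were picked out from these descriptions after the data were at hand, and chains of such gene families can share probe sequence. Of the 12, 8 were tested, 1 was called lower and 0 higher. Over all tested probes 10.5% were called lower and 12.1% higher, so nothing is read from this count. No channel was well above background for both alpha chain probes, 1 of the 2 gamma probes and 1 V segment probe of unstated chain. The delta chain probe, in unplaced sequence (chrUn, 130288014 to 130287955), had spots of 1010 to 3760 over its 4 channels. Its log2 signal was 10.87 and 10.54 in DFM against 11.44 and 11.44 in control. The delta chain thus lay lower with DFM on both arrays, with log2 ratios of -0.56 and -0.90 (mean -0.73 ± 0.14, SE, adjusted p = 0.00735), or 1.66-fold lower, although the call was lost with the scanner software's ratio (mean -0.75, adjusted p = 0.0788).

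The gamma chain, which pairs with delta, measured -0.75 on replicate 1 and -0.05 on replicate 2 and was not called (mean -0.40 ± 0.17, SE, adjusted p = 0.132). Like CD3E it was further from 0 on replicate 1. The delta V segment probes measured -0.35 and -0.16 for one and, for the other, -0.21 and -0.10 with no DFM channel well above background, and neither was called. The beta chain probes, of the alpha beta receptor, disagreed in sign. On chromosome 1, the probe at 72173129 to 72173188 measured -0.33 and -0.45 (adjusted p = 0.0565), with DFM well above background on 1 of 2 arrays. The probe at 72173116 to 72173175, which shares 47 positions with it, measured 0.54 and 0.21 (adjusted p = 0.0809), with control well above background on 1 of 2 arrays. The third beta probe, which has no coordinates, measured -0.19 and -0.14 (adjusted p = 0.371).

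**Figure D4:**
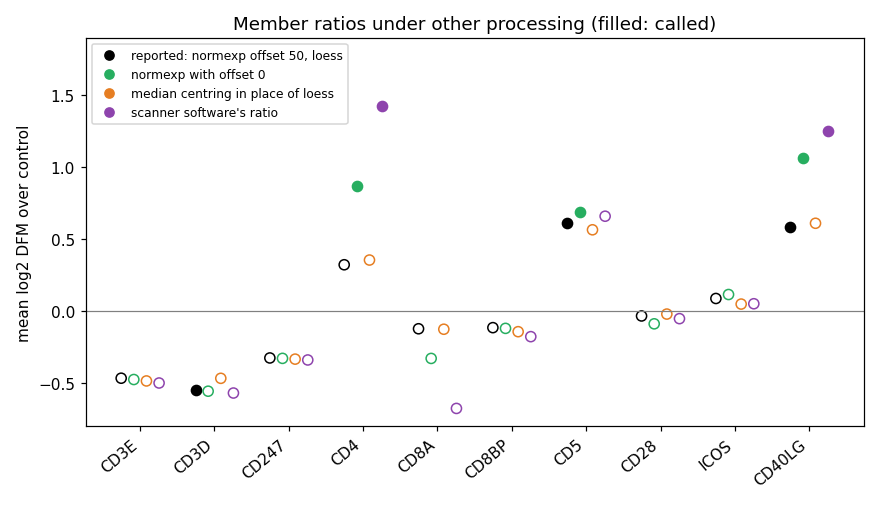
Mean log2 ratio of DFM over control of each tested member under the reported processing (black), no offset (green), median centring (orange) and the scanner software's ratio (purple), filled where limma called it. No member changes sign, CD4 rises from 0.32 to 1.43 and CD40LG from 0.59 to 1.26, and CD8A falls from -0.12 to -0.68.

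The genes that act around the receptor were followed by lists, each gene by its brightest tested probe. Over all 5863 genes tested in this way 8.41% were called higher and 14.5% lower, with a median of -0.08. Of 15 tested kinases, phosphatases and adaptors next to the receptor, 1 was higher, 1 lower and 13 not called (median -0.07). GRB2, a widely used adaptor of Ras signalling, measured -0.95 and -0.54 and was 1.67-fold lower (adjusted p = 0.0081). The call was lost with the scanner software's ratio (adjusted p = 0.0668) and with median centring. LCK, the kinase that phosphorylates the CD3 chains, measured 0.04 and 0.09 (adjusted p = 0.749). Its spots were dim, at 82.3 to 96.2 over backgrounds of 42.0 to 52.0, where the offset pulls ratios toward 0. ZAP70, which binds the phosphorylated chains, measured -0.40 and -0.02, with DFM well above background on 1 of 2 arrays.

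Of 8 tested genes for other T cell surface proteins, 1 was called higher and 4 lower, with a median of -0.46. PDCD1, the inhibitory receptor PD-1 of the CD28 family, measured 0.74 and 0.93 and was 1.78-fold higher (adjusted p = 0.00313). BTLA, another inhibitory receptor, measured -0.72 and -0.79 and was 1.69-fold lower (adjusted p = 0.00427). IL2RG, the common gamma chain of several interleukin receptors, was 1.47-fold lower. Also lower were the costimulatory TNF receptor gene TNFRSF18, at -0.51 and -0.63, and CD99, at -0.75 and -0.61. CD7 measured -0.53 and -0.21 and was not called (adjusted p = 0.0822). With the scanner software's ratio this list had 0 genes higher and 1 lower, and with median centring 0 and 0.

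Of 6 tested ligands and partners on other cells, 1 was higher and 1 lower, with a median of -0.09. B2M, the light chain of MHC class I, which CD8 binds, was 1.42-fold lower (adjusted p = 0.0211). Its spots were dim, at 106 and 81.3 in DFM and 121 and 141 in control over backgrounds of 46.0 to 53.0. A second B2M probe was not tested. TAP2, the peptide transporter for MHC class I, was 1.36-fold higher (adjusted p = 0.0396). TAP2 lost its call with no offset (adjusted p = 0.13) and with the scanner software's ratio (adjusted p = 0.198), and B2M with the latter (adjusted p = 0.0564). The MHC class II chaperone gene CD74 measured -0.32 and -0.32 and was not called (adjusted p = 0.0974). The ligand genes for the costimulatory members were dim. CD86, which binds CD28, was well above background in no channel, CD40, the receptor of CD40LG, in 1 control channel, and ICOSLG in 1 channel of each group. Of 8 tested T lineage factors, 0 were higher and 1 was lower: KLF2, which holds T cells in a resting, recirculating state, measured -1.01 and -0.98 and was 2.00-fold lower (adjusted p = 0.00115). KLF2 kept its call with the scanner software's ratio (adjusted p = 0.0331) and lost it with median centring. GATA3, a T lineage factor, measured -0.48 and -0.23 and was not called (adjusted p = 0.0844).

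**Figure D5:**
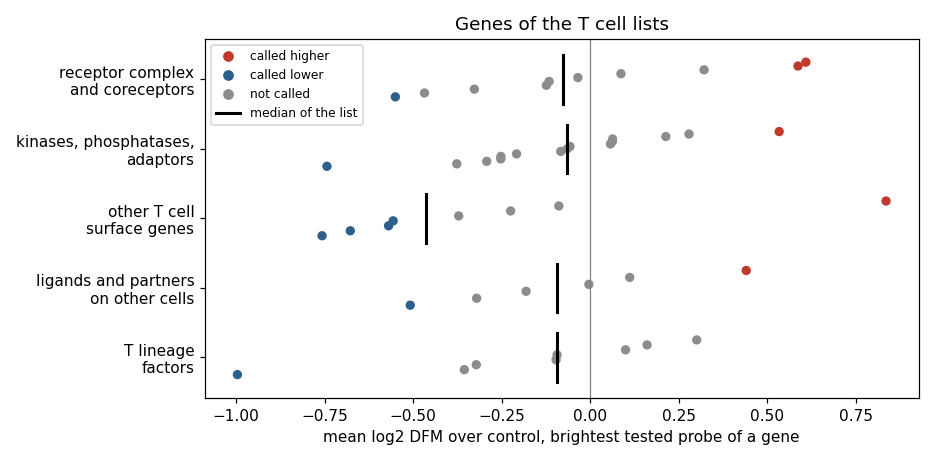
Mean log2 ratio of DFM over control of each tested gene in 5 T cell lists, by its brightest tested probe, with red called higher, blue called lower, grey not called and a black bar at each list's median. The medians run from -0.46 for the other T cell surface genes to -0.07 for the kinases, phosphatases and adaptors, against -0.08 over all 5863 genes.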

How the data were processed

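Two-colour Agilent chicken arrays compared DFM with control RNA directly. The scanner files deposited by the authors hold intensity columns, mean spot brightness and median local background in Cy3 and Cy5, per the file headers. They also hold, per the file headers, the scanner software's log10 ratio of Cy5 over Cy3 and its within-array p-value. The authors' series table holds log2 values, which matched the scanner's processed DFM over control ratio on both arrays (r = 1, medians -0.274 and 0.204), so scale and direction are known. Flags and other columns are deposited as well. Feature Extraction 10.7.3.1 is the scanner software version in the submitters' processing notes, whereas the file headers record 9.5.3.1.

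Of 43451 spots, 1417 were controls, and 5 probes with outlier flags were left out. No probe was saturated. Intensities were background-corrected (normexp, offset 50) and loess-normalized within arrays with limma 3.58.1 in R 4.3.3. Ratios were turned to DFM over control and tested against 0 with lmFit and eBayes (1 residual and 7.52 prior degrees of freedom), two-sided, with Benjamini-Hochberg adjustment over 18242 probes. SE and 95% intervals are moderated. Channel levels follow Aquantile normalization. The fit was tested on simulated data. Genes were named through RefSeq GRCg7b tables, for names only. The number of arrays limits precision. The members and lists were chosen with earlier results of these data known. Every member was described, and from each list up to 6 called genes and defining markers were named, and a few uncalled or dim genes beyond these were named after their values were seen. No probe or protein sequences were in the files used here. The values of 1 called gene of the lists are not reported here.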

Additional observations from a re-analysis of the deposited data

How the results depend on the processing

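The mean ratios of the 10 members kept their sign under all alternatives run: no offset, median centring, the scanner software's ratio, the authors' series table, no filter on dim probes, all 4 channels well above background, and 1 probe per named gene. The runs that changed only the filter or the set of probes reuse the reported ratios, so they could not change a sign. The authors' table repeats the scanner software's ratio. For CD4 the all-channel filter gave no value, since 1 control channel was dim. CD3D lost its call with no offset (-0.56), the scanner ratio (-0.57), the authors' deposited table (-0.57) and median centring (-0.47). CD5 lost it with the scanner ratio (0.66), that table (0.66) and median centring (0.56), and CD40LG with median centring (0.61). CD4 gained a call with no offset (0.87), the scanner ratio (1.43) and that table (1.43), and CD3E in the added fit over 1 probe per gene (-0.47). Members called lower were thus 0 with no offset, with the scanner ratio and with median centring, and 2 in the added fit. Members called higher were 0 with median centring. Over all probes, 1179 were higher and 951 lower with the scanner ratio, and 109 and 8 with median centring. Without loess the arrays differed more: CD3D measured 0.76 on replicate 1 and -1.70 on replicate 2 with median centring. There CD247 (0.74 and -1.41), CD8BP (0.72 and -1.01), CD5 (1.27 and -0.14), ICOS (0.63 and -0.53) and CD28 (0.26 and -0.30) differed in sign. CD3E measured 0.00 and -0.97, and CD4, CD8A and CD40LG had the same sign on both arrays. Every member had the same SE of 0.61 with median centring, too wide to call ratios of their size. A further 48 ratios were followed, some of them not called at the start and some not named above. Of these, 34 lost their call with median centring, 20 with the scanner ratio and 5 with no offset, and none was called in the opposite direction. Of 26 list counts, 20, 13 and 6 moved by more than 1.5 times in these settings. A single array gives a ratio with no test, and both arrays' ratios are given above. The test already pairs DFM with control within each array. A dye or replicate term was not added because it would leave no residual degrees of freedom. Signal over background limits CD4, CD8A, CD28 and CD40LG most.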

Other observations

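A probe described as similar to the CD8 alpha chain, listed as LOC428800 and not as CD8A, lies on chromosome 4 between the CD8A probe, 87.5 kb away, and the CD8BP probe, 131 kb away. Its log2 signals were 6.51 and 6.25 in DFM against 6.62 and 6.92 in control, and the DFM channel of replicate 2 was not well above background. The log2 ratios were -0.11 and -0.67 (mean -0.39 ± 0.16, SE, n = 2 arrays, limma adjusted p = 0.110), so it was not called. With the scanner software's ratio the arrays gave -0.12 and -2.05.

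The beta chain probes that share 47 positions on chromosome 1 moved further apart with less compression of dim signal. With no offset the means were 1.04 (adjusted p = 0.0193) and -1.0 (adjusted p = 0.0115), so both were called in opposite directions. With the scanner software's ratio the first measured 3.42 and 1.00 on the arrays and the second -1.24 and -1.53. The spots of both were dim, at 63.6 to 109 and 71.5 to 109, and no explanation was tested.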
